A study of Homo sapiens with 6 samples.

Results

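The genes described here are 42 that act in mitosis and at the spindle: cyclins and their kinase, mitotic kinases, checkpoint and kinetochore proteins, kinesins, spindle microtubule proteins, and the transcription factors FOXM1 and MYBL2. They were chosen by name, not by a measured value, from the 20333 gene intervals of the deposited count table. All 42 were in the table and passed the filter on low counts, and the lowest count of any of them in a library was 375. The counts come from precision nuclear run-on sequencing (PRO-seq), which reads RNA at polymerases that are engaged on the DNA and so follows transcription rather than stored mRNA. The cells were T47D, a luminal breast cancer line that is positive for the estrogen receptor and negative for HER2, grown with growth factors and treated for 5 h in 3 arms. The control arm received DMSO. The second arm received 500 nM GDC0068, which blocks the catalytic activity of the AKT kinases. The third received 100 nM INY-05-040, a compound designed to have AKT itself broken down, named Degrader below. Per the series' design, these doses were picked to suppress signalling below AKT to a similar extent, and the 2 libraries per arm come from 2 independent experiments in a single cell line.

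Library totals lay between 25371819 and 32192576 counts. Levels are given in CPM, each gene's counts per 1e6 counts of the scaled library. Of 8 luminal markers, 8 were in the table, with a summed level of 5111 to 5485 CPM per library, though TFF1 stood at only 4.08 to 5.84 CPM. Among them PGR, the progesterone receptor gene, rose under Degrader by 0.34 (edgeR adjusted p = 0.00801). In a fit with the experiment (the replicate number) as a block, PGR was higher and ESR1 lower under both drugs. In that fit KRT8 and KRT18 were also higher under GDC0068, and FOXA1 was higher and TFF1 lower under Degrader. It called 17.8% of all genes under GDC0068 and 30.7% under Degrader. Of 13 markers of basal, fibroblast and blood cells, 11 were not in the table; ZEB1 stood at 5.23 to 5.99 CPM and CD68, a marker of macrophages that other cells also transcribe, at 83.6 and 77.2 CPM in DMSO, 62.6 and 67.6 under GDC0068 and 64.4 and 55.1 under Degrader. CD68 fell by 0.30 and 0.43 on the log2 scale under the 2 drugs (edgeR adjusted p = 0.0487 and 0.00361), and its part in the results below was not tested. The 42 mitosis and spindle genes together took 3626 and 3748 CPM in the DMSO libraries, 3642 and 3634 CPM under GDC0068, and 4028 and 3996 CPM under Degrader. Both Degrader libraries thus lay above the other 4. The labels describe no sorting by cell cycle phase, so more cells in G2 or M and more transcription per cell cannot be told apart in any value below.

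As background, entry into mitosis depends on CDK1 bound to cyclin B, which WEE1 and PKMYT1 hold back by phosphorylation and the CDC25 phosphatases release. Kinetochores then capture spindle microtubules, the checkpoint delays anaphase until every chromosome is attached, and the anaphase-promoting complex with CDC20 marks cyclin B and securin for destruction. Most of these genes are transcribed together late in the cell cycle. In resting cells the DREAM complex represses them through a promoter element called the cell cycle genes homology region (CHR), and in cycling cells MYBL2 and then FOXM1 join the MuvB core and activate them, with NF-Y bound at CCAAT boxes. AKT phosphorylates and so restrains FOXO transcription factors, which in many cells slow the cycle.

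The promoters of the set were searched for these elements. RefSeq promoter windows of GRCh38.p14, from 250 bases before to 50 bases after an annotated start, were found for 35 of the 42 genes (not for TTK, AURKA, UBE2C, TPX2, FOXM1, BIRC5 and BUB3). For 32 the annotated start of a window lay within 100 bp of the start of the counted interval. The CHR was searched as TTTGAA or TTCGAA and the CCAAT box as CCAAT, each on both strands, so that TTCAAA and ATTGG are the same elements read from the other strand. A CHR was present in 25 of the 32 windows, against 16.4% of all 35116 promoter windows and 9.64% of the 8666 windows near the start of a tested gene. CCAAT was present in 25 of the 32, against 34.6% and 38.7%. An E2F site was searched as TTGGCGC, as the variant TTCCCGC, as the variant TTCGCGC and as the variant TTGCCGC, and was found in 9 of the 32, against 12.97% and 22.4%. The forkhead letters GTAAACA were found in 0 of the 32, against 3.42% and 2.04%. In the 250 bases before the start alone, 18 windows held a CHR (8.25% of the windows of tested genes), 25 a CCAAT box (37.3%) and 6 an E2F site, which at 18.8% was no larger a share than the 19.0% of tested genes. In 13 windows a CHR began within the last 40 bases before the start.

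The 160 bases before the RefSeq start are printed for 6 of the genes, 5′ to 3′ on the strand of the gene, with every CHR and CCAAT match in capitals. MYBL2 is shown because it was the gene that fell, NUSAP1, ASPM and TOP2A because they rose under Degrader, KIF11 because its call depended on the model, and CCNB2 because it holds the elements and was not called in any contrast. The windows are chr20:43666954-43667113 (plus strand), chr15:41332721-41332880 (plus), chr1:197146670-197146829 (minus), chr17:40417897-40418056 (minus), chr10:92592970-92593129 (plus) and chr15:59104986-59105145 (plus).
MYBL2: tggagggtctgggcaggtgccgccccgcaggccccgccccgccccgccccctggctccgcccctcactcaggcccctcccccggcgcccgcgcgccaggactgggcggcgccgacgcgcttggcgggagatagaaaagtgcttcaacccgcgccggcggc
NUSAP1: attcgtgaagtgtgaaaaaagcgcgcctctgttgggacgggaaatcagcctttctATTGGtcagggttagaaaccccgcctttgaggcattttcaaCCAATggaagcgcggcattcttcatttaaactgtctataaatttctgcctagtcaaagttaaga
ASPM: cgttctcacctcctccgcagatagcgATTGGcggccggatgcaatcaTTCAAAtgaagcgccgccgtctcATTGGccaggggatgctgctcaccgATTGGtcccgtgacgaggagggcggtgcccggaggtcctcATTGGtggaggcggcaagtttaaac
TOP2A: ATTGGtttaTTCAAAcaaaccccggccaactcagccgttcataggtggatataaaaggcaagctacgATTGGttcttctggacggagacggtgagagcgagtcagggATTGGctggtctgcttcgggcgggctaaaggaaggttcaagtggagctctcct
KIF11: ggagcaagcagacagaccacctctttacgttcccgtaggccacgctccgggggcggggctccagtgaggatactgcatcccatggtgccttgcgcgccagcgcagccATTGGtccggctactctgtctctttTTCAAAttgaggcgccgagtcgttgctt
CCNB2: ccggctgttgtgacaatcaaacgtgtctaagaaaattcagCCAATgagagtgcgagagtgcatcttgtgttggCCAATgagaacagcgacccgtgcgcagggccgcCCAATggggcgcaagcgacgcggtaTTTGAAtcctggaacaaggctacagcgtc
The MYBL2 stretch has no capitals: neither set of letters occurs in it. KIF11 and CCNB2 carry a CHR that begins 28 and 29 bases before the start, and their nearest CCAAT boxes begin 53 and 54 bases before the start. ASPM has 4 CCAAT boxes and TOP2A has 3 in this stretch. NUSAP1 has 2 CCAAT boxes here, and its CHR begins at base 14 after the start, outside the printed part. These are matches of letters, with no measurement of binding.

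Levels in DMSO, compared per kilobase of interval, spanned a wide range. The short genes UBE2C (14.5 CPM per kb, the E2 enzyme of the anaphase-promoting complex), BIRC5 (9.48, survivin, of the chromosomal passenger complex), PLK1 (8.55) and CDC20 (8.54) had the highest values per kb. KIF4A (0.590 CPM per kb) and CENPE (0.615), both motor proteins with long genes, had the lowest. Without division by length, ANLN (261 CPM, mean of DMSO), ECT2 (227) and CENPF (225) stood highest. The part of each interval that was counted is not given in the sources used here.

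Under Degrader, most of the mitosis and spindle genes stood a little above DMSO, and most of these differences did not pass the test. Of the 42, 8 rose (CDC25C, NDC80, NUSAP1, CENPF, ASPM, CKAP2, TOP2A and TPX2), by 0.18 to 0.50 on the log2 scale, 1 fell (MYBL2), and 33 did not pass (edgeR quasi-likelihood test over 19902 genes, adjusted p under 0.05, which is what called means throughout). The background was 15.3% of all genes tested, 7.39% called higher and 7.88% lower. The median log2 fold change was 0.10 over the 42 genes and 0.00 over all genes tested, and 37 of the 42 were above 0, against 49.7% of all genes. In 30 of the 42 both Degrader libraries lay above both DMSO libraries and in 2 both lay below, against 29.3% and 29.2% of all genes.
The count depended on how the 2 experiments were treated. Libraries with the same replicate number deviated together from their arm means, and with the replicate number as a block 19 genes were higher and 2 lower, among them all 9 called without it, where the background was 30.7% (15.1% higher and 15.7% lower). Fewer of the 42, and fewer of all genes, were called in each fit without a DMSO or Degrader library. Without DMSO replicate 1 and 2 the median log2 fold change of the 42 was 0.08 and 0.13. It was 0.09 and 0.11 without Degrader replicate 1 and 2, and 0.10 without either GDC0068 library. Within the experiments, the median log2 ratio of the 42 genes was 0.16 among the libraries numbered 1 and 0.06 among those numbered 2.

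Under GDC0068 the set as a whole stayed close to DMSO. MYBL2 fell and CDC25C rose, and the other 40 genes did not pass the test, with a background of 3.58% (1.70% called higher and 1.88% lower). The same 2 genes were called with the replicate block (background 17.8%, with 8.87% higher and 8.91% lower). The median log2 fold change was -0.02 over the 42 genes and 0.01 over all genes tested. Of the 42, 13 were above 0, against 52.6% of all genes. That split moved with the libraries: without DMSO replicate 2, 23 of the 42 were above 0, and in the other alternative fits 12 to 16 were. In 6 genes both GDC0068 libraries lay above both DMSO libraries and in 12 both lay below, against 26.1% and 24.0% of all genes tested.

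Set directly against each other at their different doses, the drugs left nearly all of the set on the same side. In 40 of the 42 genes the Degrader mean was the higher, against 48.9% of all genes, with a median log2 difference of 0.15 (all genes, 0.00). The ratio was above 0 within both experiments in 39 of the 42, with medians of 0.15 and 0.14, and in 32 of the 42 both Degrader libraries lay above both GDC0068 libraries (background 22.1%). In the fit without the block no single gene passed: edgeR called 0 of the 42 (background 0.266%, with 0.116% higher and 0.151% lower). At an unadjusted p under 0.05 stood 27 of the 42 (14.1% of all genes), and DESeq2 called 1, CDC25C. With the replicate block edgeR called 22 of the 42, all higher under Degrader, where the background was 10.4% (5.03% higher and 5.35% lower). The contrasts share libraries, so their counts are not independent of each other. The sizes were small throughout, from -0.08 in CDC20 and -0.06 in BUB3 to 0.24 in TTK and 0.29 in CDC25C. Over all genes tested the difference between the drugs went with interval length (Spearman's rho 0.21, and 0.34 across the 42). The part of length in it was not tested.

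**Figure D1:**
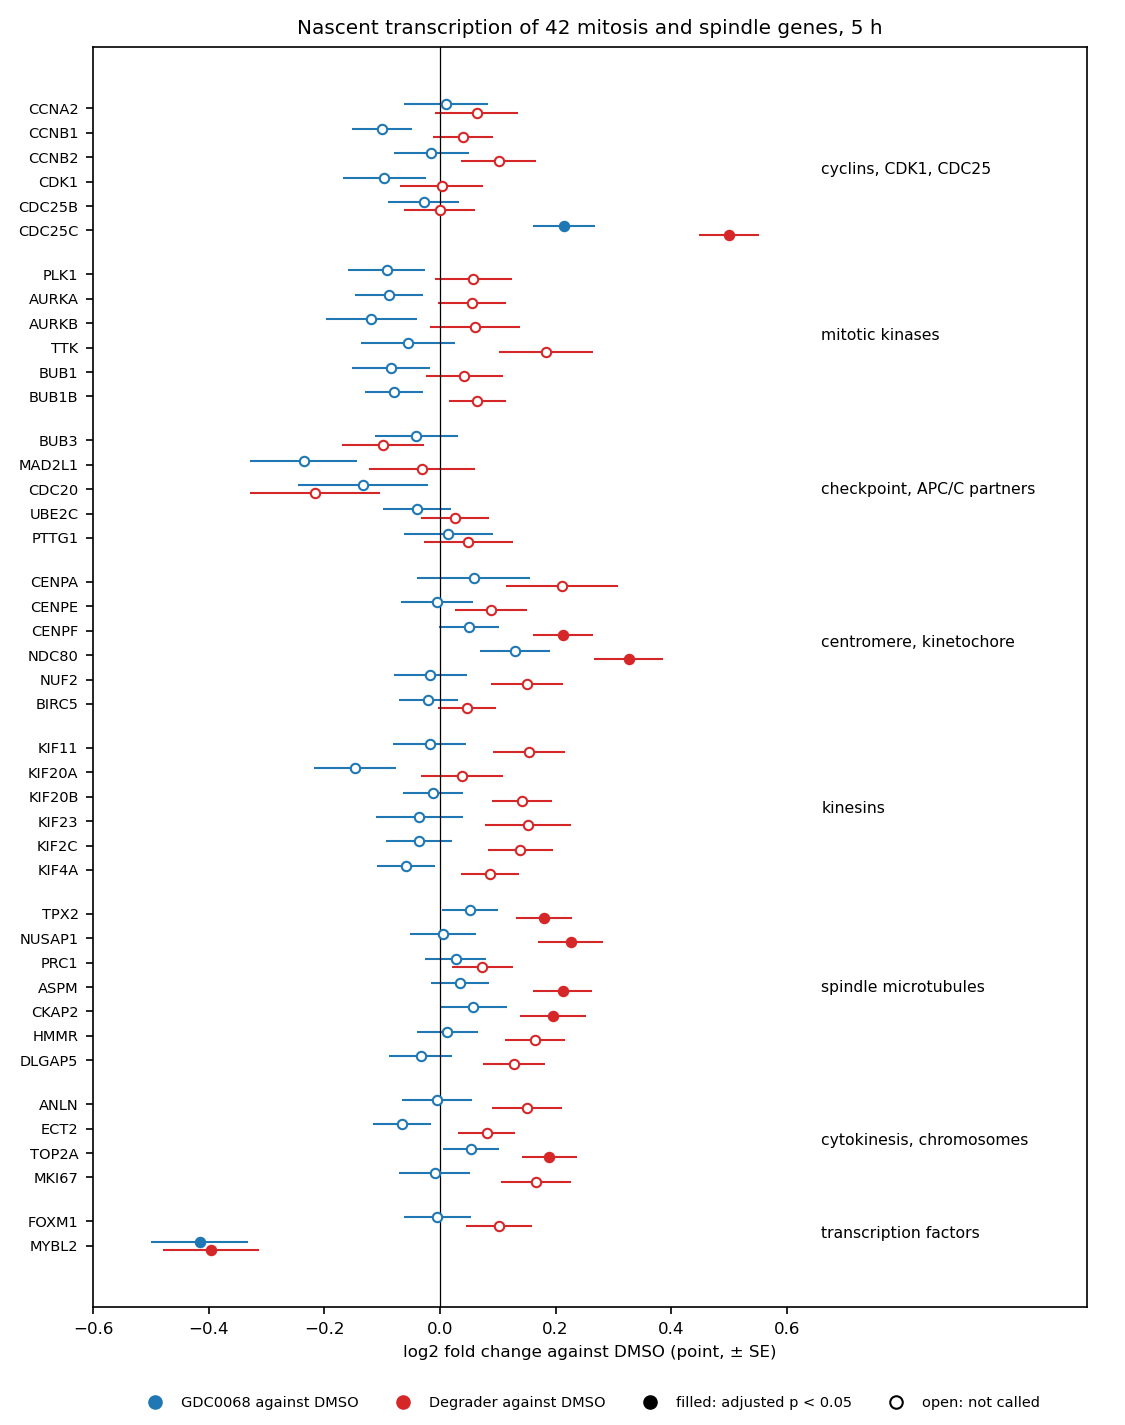
Log2 fold changes against DMSO (horizontal axis, ± SE) of the 42 genes, grouped by role, for GDC0068 (blue) and Degrader (red); filled points passed the edgeR test. The red points lie right of the blue ones in 40 of the 42 genes, and MYBL2 and CDC25C stand apart from the rest.

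The transcription factors of the programme came apart. MYBL2 (B-Myb, ENSG00000101057, chromosome 20, 43667114 to 43716482, plus strand), which opens the late cell cycle programme with the MuvB core, stood at 82.6 and 93.0 CPM in DMSO, 60.7 and 70.6 CPM under GDC0068 and 62.6 and 70.7 CPM under Degrader. All 4 drug libraries lay below both DMSO libraries, and the 2 drug arms overlapped. It fell by 0.42 on the log2 scale under GDC0068 (SE 0.0837, edgeR adjusted p = 0.0247) and by 0.40 under Degrader (SE 0.0835, edgeR adjusted p = 0.00914). The ratios to DMSO within the 2 experiments were -0.44 and -0.40 for GDC0068 and -0.40 and -0.40 for Degrader. The GDC0068 call was lost without DMSO replicate 1 (-0.50), DMSO replicate 2 (-0.33) or GDC0068 replicate 1 (-0.31), and the Degrader call without DMSO replicate 2 (-0.31) or Degrader replicate 1 (-0.31). Between the drugs the log2 difference was 0.02 (SE 0.0847, adjusted p = 0.942). FOXM1, the forkhead factor that follows MYBL2 at the same promoters, was measured at 64.2 and 69.5 CPM in DMSO, 65.0 and 68.2 CPM under GDC0068 and 72.1 and 71.4 CPM under Degrader. It was called in no contrast, with -0.00 (SE 0.0574, adjusted p = 0.981) under GDC0068 and 0.10 (SE 0.0571, adjusted p = 0.259) under Degrader.

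Among the genes that drive entry into mitosis, CDC25C moved most. CDC25C (ENSG00000158402, chromosome 5, 138285580 to 138337745, minus strand), a phosphatase that activates CDK1, gave 52.2 and 51.5 CPM in DMSO, 60.4 and 59.9 CPM under GDC0068 and 72.0 and 74.6 CPM under Degrader. The 3 arms did not overlap, and the Degrader libraries were the highest. It rose under Degrader by 0.50 (SE 0.0525, adjusted p = 2.61e-04), and this call held in all 13 alternative fits. Under GDC0068 it rose by 0.21 (SE 0.0531, adjusted p = 0.0487), a call that was lost in 11 of the 13 (adjusted p from 0.0501 to 0.206), with a log2 fold change of 0.20 to 0.22 over all 13. The losses include each fit without a library, and the call was kept with the block (0.00194) and with robust dispersion. The difference between the drugs was 0.29 (SE 0.0522, adjusted p = 0.0528), and it was called with the block (edgeR adjusted p = 1.60e-04), with DESeq2 (adjusted p = 0.0360), with robust dispersion (edgeR adjusted p = 0.0402) and without the filter on low counts (edgeR adjusted p = 0.0486).
The counted CDC25C interval begins 5868 and 5941 bp upstream of 2 of its RefSeq starts and 596 and 610 bp downstream of the other 2. FAM53C, on the opposite strand, begins 521 bp upstream of it, and its own log2 fold change was -0.01 under Degrader and -0.02 under GDC0068. The windows at the 2 downstream starts hold a CHR and a CCAAT box, and those at the other 2 hold neither. Which start gave the added reads was not tested.
The cyclins and CDK1 itself showed no call against DMSO. CCNB1 (cyclin B1) was at 77.5 and 75.3 CPM in DMSO, 73.2 and 69.4 CPM under GDC0068 and 78.6 and 78.5 CPM under Degrader, and its difference between the drugs of 0.14 was called with the block alone (edgeR adjusted p = 0.0328). CCNA2, CCNB2, CDK1 and CDC25B were called in no contrast by either fit, with log2 fold changes under Degrader of 0.06, 0.10, 0.00 and -0.00.

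**Figure D2:**
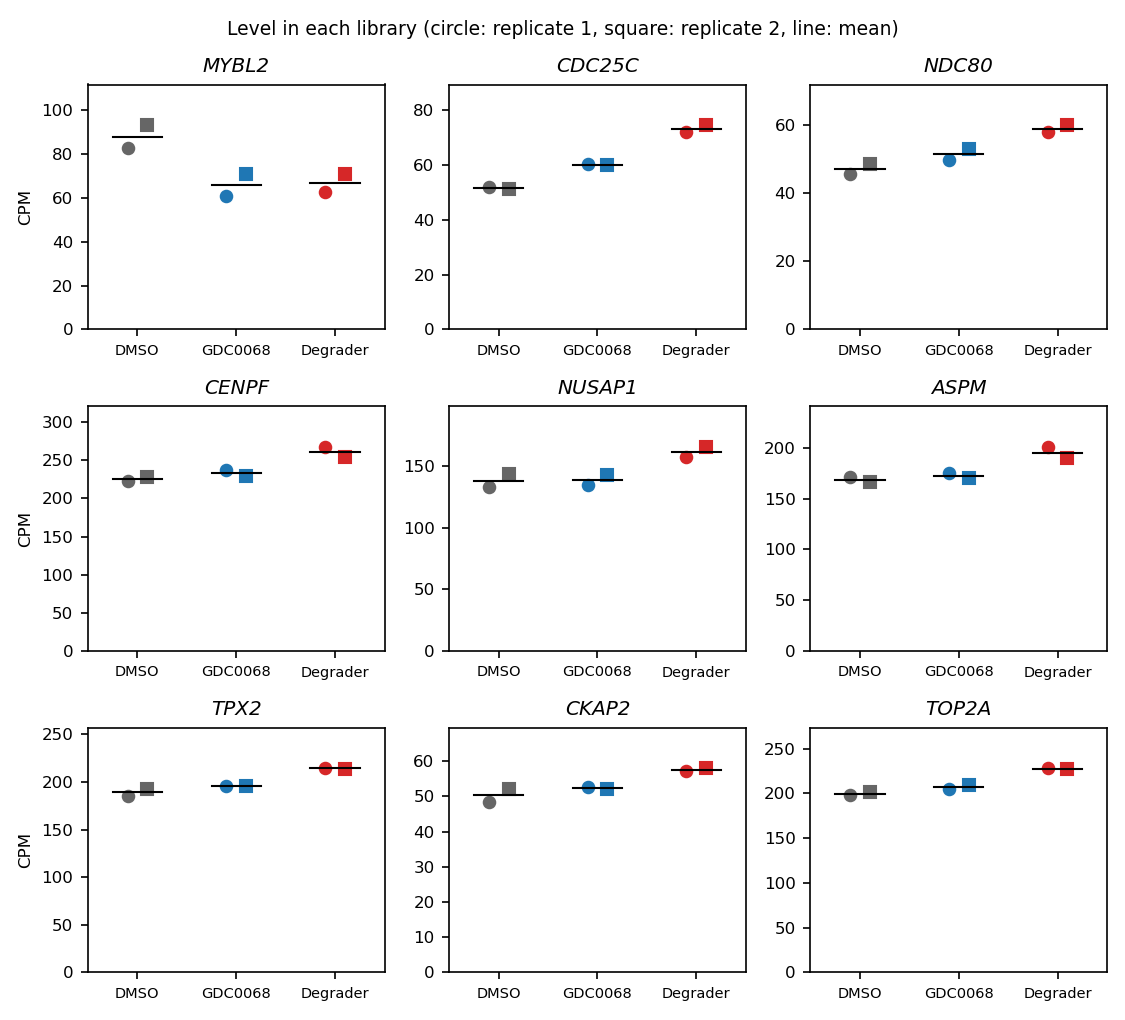
CPM (vertical axes, each from 0) in each of the 6 libraries for the 9 genes called against DMSO; circles are replicate 1, squares replicate 2 and lines the mean of the 2. MYBL2 is lower in both drug arms, and the other 8 genes are highest in the Degrader libraries.

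All 6 mitotic kinases had negative log2 fold changes under GDC0068 (-0.12 to -0.06) and positive ones under Degrader (0.04 to 0.18), and none passed against DMSO in the fit without the block. PLK1, which phosphorylates targets at centrosomes, kinetochores and the midzone, was at 98.9 and 98.6 CPM in DMSO, 96.3 and 89.1 CPM under GDC0068 and 109.9 and 95.7 CPM under Degrader. AURKA, the kinase of spindle poles, was at 105 and 105 CPM in DMSO, 103 and 95.0 CPM under GDC0068 and 114 and 104 CPM under Degrader, and its interval starts 476 bp from that of CSTF1 on the opposite strand. BUB1B (BubR1, of the mitotic checkpoint complex) was at 89.3 and 92.6 CPM in DMSO, 86.9 and 85.2 CPM under GDC0068 and 93.7 and 96.5 CPM under Degrader. In PLK1 and AURKA the lower GDC0068 libraries and the higher Degrader libraries came from different experiments, and in both drug arms the 2 libraries were further apart than in BUB1B. With the block, Degrader was above GDC0068 in these 3 genes (edgeR adjusted p = 0.0240 for PLK1, 0.0210 for AURKA and 0.0187 for BUB1B). TTK (MPS1, which starts checkpoint signalling) was at 30.0 and 33.1 CPM in DMSO, 31.1 and 29.6 CPM under GDC0068 and 37.8 and 33.8 CPM under Degrader. Its block calls were for Degrader against DMSO (0.18, edgeR adjusted p = 0.0464) and against GDC0068 (0.24, edgeR adjusted p = 0.0302). AURKB, the catalytic kinase of the chromosomal passenger complex, and BUB1 were called in neither fit, with log2 differences between the drugs of 0.18 and 0.13.

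Of the 5 genes of the checkpoint and of partners of the anaphase-promoting complex, none rose under either drug in either fit. CDC20, the activator of that complex, was at 39.7 and 32.3 CPM in DMSO, 35.6 and 30.4 CPM under GDC0068 and 33.7 and 28.5 CPM under Degrader. The libraries numbered 2 were the lower in every arm, and the arms overlapped. Its Degrader value of -0.22 (SE 0.113, adjusted p = 0.226) was called with the block alone (edgeR adjusted p = 0.0112), as lower. MAD2L1, which binds CDC20 while kinetochores are unattached, was at 17.1 and 18.5 CPM in DMSO, 14.7 and 15.3 CPM under GDC0068 and 17.1 and 17.7 CPM under Degrader, with -0.24 (SE 0.0929, adjusted p = 0.182) under GDC0068. It had the lowest log2 fold change under GDC0068 after MYBL2, and both GDC0068 libraries lay below the other 4. BUB3 (-0.10 under Degrader), UBE2C (0.03) and PTTG1, the securin gene (0.05), were called in no contrast.

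Among the 6 centromere and kinetochore genes, 2 rose under Degrader and none was called under GDC0068. NDC80 (ENSG00000080986, chromosome 18, 2571563 to 2616635, plus strand), the microtubule-binding subunit that names its complex, was at 45.6 and 48.6 CPM in DMSO, 49.8 and 53.0 CPM under GDC0068 and 58.0 and 60.0 CPM under Degrader. The arms did not overlap. It rose under Degrader by 0.33 (SE 0.0603, adjusted p = 0.00479), with 0.13 (SE 0.0608, adjusted p = 0.261) under GDC0068, and the call was lost without DMSO replicate 1 (0.28) or Degrader replicate 2 (0.29). METTL4, whose interval starts 60 bp away on the other strand, had 0.14 under Degrader and was not called. CENPF (ENSG00000117724, chromosome 1, 214603243 to 214664571, plus strand), a large coiled-coil protein of the outer kinetochore, was at 222 and 228 CPM in DMSO, 237 and 229 CPM under GDC0068 and 268 and 254 CPM under Degrader and rose by 0.21 (SE 0.0520, adjusted p = 0.0188). Each of the 4 fits without a DMSO or Degrader library lost that call: 0.19 and 0.23 without DMSO replicate 1 and 2, 0.17 and 0.24 without Degrader replicate 1 and 2.
Other members of this group reached a call against DMSO with the block. CENPA, the histone H3 variant of centromeres, was at 21.5 and 21.8 CPM in DMSO, 24.3 and 20.8 CPM under GDC0068 and 26.4 and 23.7 CPM under Degrader (Degrader against DMSO 0.21, block edgeR adjusted p = 0.0461). NUF2, the partner of NDC80, was at 40.6 and 43.9 CPM in DMSO, 41.1 and 42.3 CPM under GDC0068 and 47.5 and 46.2 CPM under Degrader (0.15, block edgeR adjusted p = 0.0383). In both genes the 2 Degrader libraries lay above both DMSO libraries, by less than in NDC80. Between the drugs, NDC80 and CENPF were called with the block (edgeR adjusted p = 0.00959 and 0.00411). CENPE (0.09 under Degrader) and BIRC5 (0.05) were called in neither fit.

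The 6 mitotic kinesins had values within narrow bounds, and none passed in the fit without the block. Their log2 fold changes ran from -0.15 to -0.01 under GDC0068 and from 0.04 to 0.15 under Degrader, and in all 6 both Degrader libraries lay above both GDC0068 libraries. KIF11 (Eg5, which pushes spindle poles apart) was at 139 and 154 CPM in DMSO, 139 and 150.1 CPM under GDC0068 and 158 and 169 CPM under Degrader. KIF23, a motor of the central spindle, was at 65.2 and 77.5 CPM in DMSO, 66.9 and 72.1 CPM under GDC0068 and 78.3 and 80.1 CPM under Degrader. In both genes the libraries numbered 2 were the higher in every arm, and the Degrader libraries lay above the other 4, while DMSO and GDC0068 overlapped. KIF20B was at 102 and 102 CPM in DMSO, 103 and 98.9 CPM under GDC0068 and 116 and 109 CPM under Degrader. KIF2C (MCAK, which depolymerises microtubule ends) was at 62.8 and 62.0 CPM in DMSO, 59.7 and 62.0 CPM under GDC0068 and 71.3 and 66.1 CPM under Degrader. With the block these 4 genes were called against DMSO (edgeR adjusted p = 9.50e-04 for KIF11, 0.0123 for KIF23, 0.00458 for KIF20B and 0.0252 for KIF2C) and against GDC0068 (0.00162, 0.00993, 0.00957 and 0.0188 in the same order, edgeR). KIF4A, a chromosome-bound kinesin, was at 78.8 and 75.6 CPM in DMSO, 74.1 and 74.2 CPM under GDC0068 and 83.0 and 81.0 CPM under Degrader and was called between the drugs with the block (edgeR adjusted p = 0.0251). KIF20A was called in neither fit, while BRD8, which starts 540 bp from it on the other strand, rose under Degrader by 0.47 (edgeR adjusted p = 4.91e-04). KIF23 overlaps AC027237.5 on the opposite strand, which rose by 0.30 (edgeR adjusted p = 0.0180). Whether reads were counted by strand is not given in the sources used here.

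Proteins of spindle microtubules held 4 of the 8 rises, from 7 genes. NUSAP1 (ENSG00000137804, chromosome 15, 41332883 to 41381050, plus strand), which bundles microtubules near chromosomes, was at 133 and 144 CPM in DMSO, 134 and 143 CPM under GDC0068 and 158 and 166 CPM under Degrader. Both Degrader libraries lay above the other 4, while the DMSO and GDC0068 libraries overlapped. It rose by 0.23 (SE 0.0564, adjusted p = 0.0204). ASPM (ENSG00000066279, chromosome 1, 197084127 to 197146619, minus strand), a protein of spindle poles, was at 171 and 166 CPM in DMSO, 175 and 170.1 CPM under GDC0068 and 201 and 189.8 CPM under Degrader and rose by 0.21 (SE 0.0508, adjusted p = 0.0167). TPX2 (ENSG00000088325, chromosome 20, 31739301 to 31801800, plus strand), which activates AURKA on the spindle, was at 186 and 193 CPM in DMSO, 196 and 196 CPM under GDC0068 and 214 and 214 CPM under Degrader and rose by 0.18 (SE 0.0481, adjusted p = 0.0276). In ASPM the DMSO and GDC0068 libraries overlapped, and in TPX2 the GDC0068 libraries lay between the other arms. CKAP2 (ENSG00000136108, chromosome 13, 52455480 to 52476627, plus strand), a cytoskeleton-associated protein, was at 48.5 and 52.1 CPM in DMSO, 52.5 and 52.2 CPM under GDC0068 and 57.2 and 57.9 CPM under Degrader and rose by 0.20 (SE 0.0572, adjusted p = 0.0397), and DESeq2 did not call it (adjusted p = 0.116).
Leaving out a DMSO or Degrader library removed calls here, and calls over all genes were then fewer too. NUSAP1 lost its call without DMSO replicate 1 (0.17) or Degrader replicate 2 (0.18). Without DMSO replicate 1, DMSO replicate 2, Degrader replicate 1 and Degrader replicate 2 in turn, none of which left a call, ASPM gave 0.23, 0.19, 0.17 and 0.25, TPX2 gave 0.15, 0.21, 0.18 and 0.17, and CKAP2 gave 0.14, 0.25, 0.20 and 0.18. The direction was the same in each.
HMMR, a hyaluronan receptor that also binds spindle microtubules, was at 82.6 and 81.5 CPM in DMSO, 84.1 and 81.6 CPM under GDC0068 and 95.1 and 88.9 CPM under Degrader. DLGAP5 (HURP, which stabilises kinetochore fibres) was at 70.2 and 74.1 CPM in DMSO, 71.4 and 69.5 CPM under GDC0068 and 80.7 and 76.9 CPM under Degrader. Both were called with the block, HMMR against DMSO (edgeR adjusted p = 0.00225) and GDC0068 (0.0160) and DLGAP5 likewise (0.0268 and 0.0196). NUSAP1, ASPM and TPX2 were also called between the drugs with the block (edgeR adjusted p = 1.18e-04, 0.00118 and 0.0171). PRC1, which crosslinks the central spindle, was called in neither fit (0.07 under Degrader). The intervals of NUSAP1 and ASPM overlap other intervals on their own strand (AC087721.1 and AC087721.2, and SEPTIN14P12), whose log2 fold changes under Degrader were 0.15, 0.19 and 0.10, none of them called.

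Cytokinesis and chromosome structure gave 1 rise among 4 genes. TOP2A (ENSG00000131747, chromosome 17, 40388525 to 40417881, minus strand), the topoisomerase that untangles sister chromatids, was at 198 and 201 CPM in DMSO, 205 and 209.8 CPM under GDC0068 and 228 and 228 CPM under Degrader. The arms did not overlap, with GDC0068 in between. It rose under Degrader by 0.19 (SE 0.0479, adjusted p = 0.0217), and the call was lost without DMSO replicate 1 (0.17), DMSO replicate 2 (0.20), Degrader replicate 1 (0.19) or Degrader replicate 2 (0.18). MKI67, the Ki-67 proliferation marker, was at 110.2 and 115 CPM in DMSO, 105 and 119 CPM under GDC0068 and 124 and 128 CPM under Degrader. ANLN (anillin, a scaffold of the contractile ring) was at 248 and 275 CPM in DMSO, 257 and 263 CPM under GDC0068 and 281 and 299 CPM under Degrader. ECT2, which activates RhoA for cytokinesis, was at 224 and 231 CPM in DMSO, 220.0 and 214 CPM under GDC0068 and 243 and 238 CPM under Degrader. In each of these 3 genes both Degrader libraries were the highest of the 6. With the block MKI67 and ANLN were called against DMSO (edgeR adjusted p = 0.00153 and 0.00183), and all 4 genes of the group against GDC0068 (edgeR adjusted p = 0.0110 for TOP2A, 0.00388 for MKI67, 0.00577 for ANLN and 0.00774 for ECT2).

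**Figure D3:**
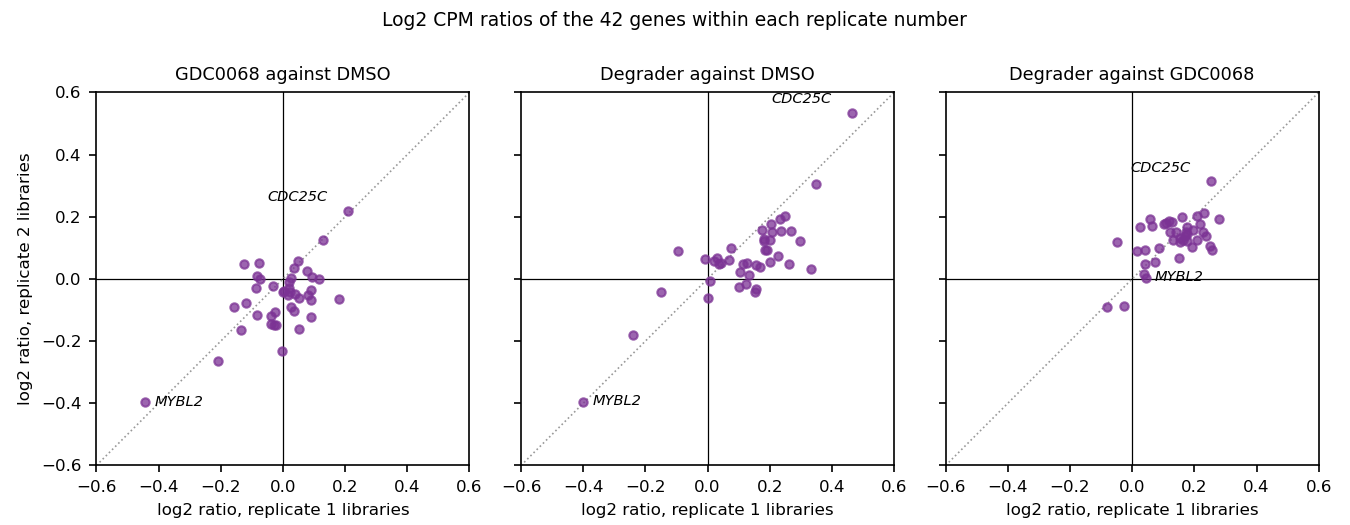
Log2 CPM ratios of the 42 genes among the libraries numbered 1 (horizontal) and 2 (vertical) for the 3 contrasts; each point is a gene and the dotted line marks equal ratios. Against GDC0068, Degrader is above 0 on both axes in 39 of the 42 genes, and MYBL2 is near -0.40 in both drug contrasts against DMSO.

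Across the set, 27 of the 42 genes were called in at least 1 contrast by either fit and 15 in none. The share of all genes tested that were called on this pooled basis was not counted, so the 27 have no background beside them. For Degrader against DMSO alone, the fit with the block called 30.7% of all genes. Over those 15, log2 fold changes ran from -0.24 (MAD2L1) to 0.03 (PRC1) under GDC0068, from -0.10 (BUB3) to 0.10 (FOXM1) under Degrader, and from -0.06 (BUB3) to 0.21 (MAD2L1) between the drugs.
The genes that rose under Degrader all had intervals over 20 kb, the shortest being CKAP2 (21.1 kb) and TOP2A (29.4 kb). Longer genes such as KIF4A (131 kb) and CENPE (93.0 kb) were not called against DMSO. Of the 16 genes with intervals under 20 kb, 0 were called, of the 10 between 20 and 40 kb 2 rose, and of the 16 over 40 kb 6 rose and MYBL2 fell. Over all genes tested, the shares called higher in these classes were 4.55%, 7.53% and 13.3%. The median log2 fold changes of the set in the classes were 0.04, 0.16 and 0.15, and those of all genes -0.02, 0.00 and 0.03. Between the drugs these medians were 0.10, 0.16 and 0.15 for the set and -0.04, 0.01 and 0.03 for all genes. Spearman's rho of the Degrader fold change with interval length was 0.52 across the 42 genes and 0.10 across all 19902, as a description of genes that share the same 6 libraries. Longer intervals also hold more counts, and the part of length in the calls was not tested.

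The other genes of cell division were counted from 6 lists that do not overlap the 42, in the same fit. The shares of all genes called, beside which their counts stand, were 7.39% higher and 7.88% lower under Degrader and 1.70% and 1.88% under GDC0068. Of 45 tested genes of late cell cycle function (46 were listed), 3 rose and 1 fell under Degrader, a smaller share than the 15.3% of all genes called, with a median log2 fold change of 0.03. KIF18A, a kinesin that damps chromosome movement, was at 86.5 and 88.9 CPM in DMSO, 98.1 and 89.7 CPM under GDC0068 and 105 and 105 CPM under Degrader and rose by 0.26 (SE 0.0545, adjusted p = 0.00962). HJURP, the chaperone of CENPA, rose by 0.19 (edgeR adjusted p = 0.0441) and TRIP13, an ATPase that takes checkpoint complexes apart, fell by 0.20 (edgeR adjusted p = 0.0353). TRIP13 had nearly the same value under GDC0068, -0.19, which was called with the block (edgeR adjusted p = 0.0827 without and 4.76e-04 with it). Under GDC0068 edgeR called 0 of these 45, with 5 at an unadjusted p under 0.05 (20.0% of all genes), and DESeq2 called 0. With the block the list had 9 higher and 2 lower under Degrader (all genes, 15.1% and 15.7%), 0 higher and 7 lower under GDC0068 (8.87% and 8.91%), and 8 higher and 1 lower between the drugs (5.03% and 5.35%). KIF18A and HJURP were among those higher under Degrader than under GDC0068 (edgeR adjusted p with the block = 0.0133 and 0.00996). The list's median difference between the drugs was 0.08, with 37 of the 45 genes above 0, against 48.9% of all genes. All calls of this list were lost without DMSO replicate 1 or without Degrader replicate 2, where calls over all genes were fewer too.

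Regulators of the programme had calls in both directions. Of 15 genes of DREAM, MuvB, NF-Y and their relatives, 3 rose and 3 fell under Degrader and 1 fell under GDC0068. RBL2 (p130, the pocket protein of DREAM) was at 55.6 and 54.3 CPM in DMSO, 59.3 and 60.0 CPM under GDC0068 and 68.8 and 70.0 CPM under Degrader and rose under Degrader by 0.34 (SE 0.0521, adjusted p = 0.00188). TFDP1, the dimer partner of E2F factors, was at 133 and 142 CPM in DMSO, 116 and 116 CPM under GDC0068 and 114 and 112 CPM under Degrader and fell by 0.28 under Degrader (edgeR adjusted p = 0.00363) and by 0.24 under GDC0068 (edgeR adjusted p = 0.0269). TFDP2, its relative, rose under Degrader by 0.30 (SE 0.0489, adjusted p = 0.00245), with 0.11 under GDC0068, which was called with the block (edgeR adjusted p = 0.0272). RBL2 and TFDP2 were also higher under Degrader than under GDC0068 with the block (edgeR adjusted p = 0.00259 and 7.24e-04).
Of 13 brakes of CDK1 and regulators of mitotic exit, 2 rose and 2 fell under Degrader and 2 fell under GDC0068. WEE1, the kinase that restrains CDK1, was at 61.7 and 62.7 CPM in DMSO, 68.7 and 65.4 CPM under GDC0068 and 77.5 and 75.9 CPM under Degrader and rose under Degrader by 0.30 (SE 0.0525, adjusted p = 0.00343). With the block it was also above GDC0068 (edgeR adjusted p = 0.00461). CDC25A, the phosphatase that acts from G1 onwards, was at 46.9 and 46.8 CPM in DMSO, 36.0 and 34.5 CPM under GDC0068 and 35.1 and 37.4 CPM under Degrader and fell under GDC0068 by 0.41 (edgeR adjusted p = 0.00908) and under Degrader by 0.37 (edgeR adjusted p = 0.00308). PKMYT1, the membrane-bound relative of WEE1, fell under GDC0068 by 0.29 (edgeR adjusted p = 0.0156) and under Degrader by 0.19 (edgeR adjusted p = 0.0289). CDC14A rose under Degrader by 0.24 (edgeR adjusted p = 0.0220), and its 0.15 under GDC0068 was called with the block (edgeR adjusted p = 0.0436). So CDC25A fell under both drugs and CDC25C rose under Degrader, while CDC25B was called under neither. The CDC25C rise under GDC0068 was called in only 2 of the 13 alternative fits.

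The protein complexes were counted in the same way. Of 17 genes of the anaphase-promoting complex, ANAPC7, a scaffold subunit at 132 and 123 CPM in DMSO, 100.1 and 96.2 CPM under GDC0068 and 97.8 and 89.3 CPM under Degrader, fell by 0.38 under GDC0068 (edgeR adjusted p = 0.00908) and 0.45 under Degrader (edgeR adjusted p = 7.37e-04). UBE2S, its chain-extending E2 enzyme, fell by 0.20 under Degrader (edgeR adjusted p = 0.0241) and had -0.19 under GDC0068 (edgeR adjusted p = 0.0739, with the block 9.13e-04). Of 20 cohesin and condensin genes, 3 rose and 1 fell under Degrader. STAG2, a cohesin subunit, rose by 0.37 (SE 0.0578, adjusted p = 0.00194), NIPBL, the cohesin loader, by 0.20 (edgeR adjusted p = 0.0167), and SMC1A, another subunit of cohesin, fell by 0.17 (edgeR adjusted p = 0.0426). SMC1A had the same -0.17 under GDC0068 (edgeR adjusted p = 0.0898, with the block 0.00188). STAG2 and NIPBL were higher under Degrader than under GDC0068 with the block (edgeR adjusted p = 4.15e-04 and 0.0123). Of 24 centrosome genes, TUBG1, the gamma-tubulin gene, fell under Degrader by 0.25 (edgeR adjusted p = 0.0462) and had -0.24 under GDC0068 (edgeR adjusted p = 0.109, with the block 0.00526). Under GDC0068 edgeR called 0 of the cohesin and condensin genes and 0 of the centrosome genes, and DESeq2 called 0 of either. At an unadjusted p under 0.05 stood 2 and 4 of them, where the share of all genes was 20.0%. With the block 3 cohesin and condensin genes and 5 centrosome genes were called under GDC0068, all lower. Of all genes 17.8% were called in that fit, 8.87% higher and 8.91% lower. Between the drugs edgeR and DESeq2 called 0 genes in each of the 6 lists. At an unadjusted p under 0.05 (14.1% of all genes) were 8, 3, 2, 4, 1 and 1 genes. This order is that of the late cell cycle, DREAM, anaphase-promoting complex, cohesin, centrosome and CDK1 brake lists. With the block edgeR called 9, 3, 1, 3, 1 and 1 in the same order, where 10.4% of all genes were called.

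**Figure D4:**
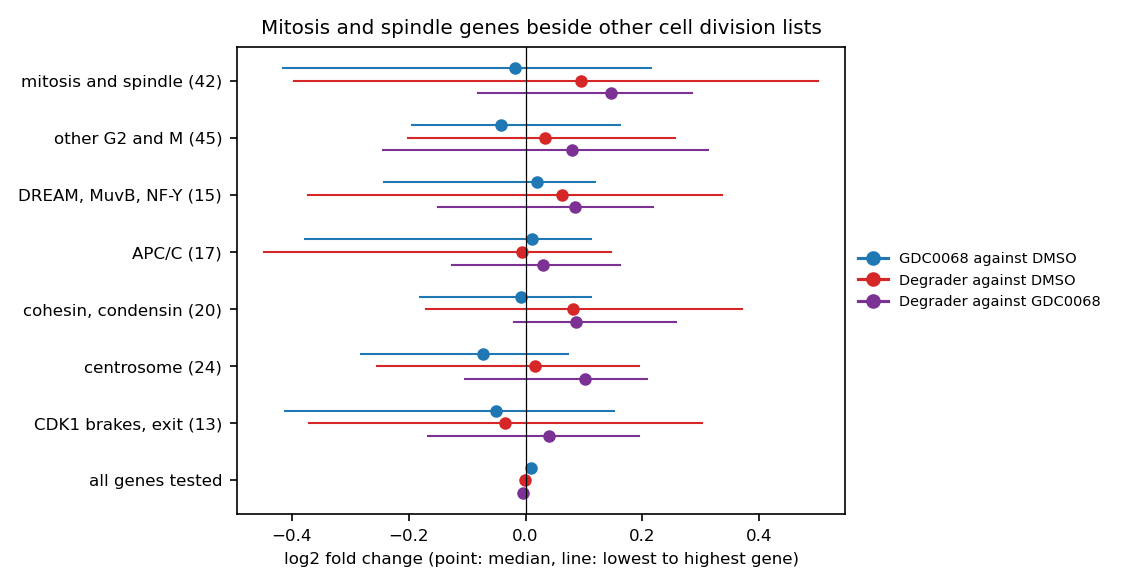
Median (point) and lowest to highest (line) log2 fold change of the 42 mitosis and spindle genes and of 6 other lists, with the number of genes tested, in the 3 contrasts; for all genes tested the median alone is drawn. The difference between the drugs has its highest median, 0.15, in the mitosis and spindle genes.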

How the data were processed

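PRO-seq counts per gene interval were analysed for 6 libraries of T47D cells, 2 in each of 3 arms. The authors deposited them as raw counts in 1 table. The submitters' processing notes list cutadapt 1.14, Bowtie 1.2.2, SAMtools 1.3.1, HISAT2 2.2.1 and limma, and the builds hg38, GRCh38 and the fly build dm3, with no role or order. The counting rule, the use of strand, the handling of duplicates and any scaling to fly reads are not given in the sources used here, so every change is relative to the bulk of genes. Coordinates are those of the table, with starts counted from 1.

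Groups and replicate numbers come from the labels. edgeR 4.0.16 in R 4.3.3 kept 19902 of 20333 genes (filterByExpr, minimum count 10, minimum total 15), scaled by TMM (factors 0.9966 to 1.003), and fitted all 6 libraries with a term per arm and 3 residual degrees of freedom (glmQLFit, glmQLFTest, Benjamini-Hochberg over all genes tested). The SE is the log2 fold change divided by the square root of F. The series describes 2 independent experiments. Same-numbered libraries deviated together (r of 0.421 to 0.496 over 13897 genes with at least 10 CPM), and the replicate block is given where it changes a call. Replicates of an arm differed by more than sampling noise (chi-square per degree of freedom 5.03 to 6.98). Nothing beyond the series' design says how separate the cultures were. With 2 libraries per arm, precision rests on the spread shared across genes.

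The 42 genes, the lists and the tests were chosen with earlier results of these data known. Values by library are given for genes called in any contrast, without or with the block, and the rest by range. From each list, up to 3 called genes with the smallest adjusted p per contrast against DMSO are named. Alternatives were DESeq2 1.42.0, other size factors, no filter on low counts, robust dispersion, only the 4 libraries compared, and leaving out each library. Promoter sequences are from RefSeq (GRCh38.p14).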

Additional observations from a re-analysis of the deposited data

How the results depend on the processing

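Among the 42 genes, edgeR called 2 under GDC0068, 9 under Degrader and 0 between the drugs. The replicate block gave 21 under Degrader and 22 between the drugs, and it changed no GDC0068 call. Under GDC0068 the count was 1 with DESeq2, RLE size factors, total counts alone, no filter on low counts, or only the 4 libraries compared, where CDC25C was the call lost. Between the drugs it was 1 with DESeq2, no filter or robust dispersion. With 1 library left out, the counts ranged from 0 to 1 under GDC0068 and from 2 to 10 under Degrader, and stayed at 0 between the drugs. Over all genes the calls were then as few as 37 under GDC0068 (without DMSO replicate 1, against 712) and 931 under Degrader (without Degrader replicate 2, against 3039).

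With the block, the calls over all genes rose too, from 712 to 3540 under GDC0068, from 3039 to 6114 under Degrader and from 53 to 2065 between the drugs. Summed over the 3 contrasts, it raised the calls from 4 to 27 in the late cell cycle list (0 to 4 with a library left out), from 7 to 15 in the DREAM list (3 to 7), from 3 to 8 in the anaphase-promoting complex list (1 to 3), from 4 to 18 in cohesin and condensin (1 to 3), from 1 to 10 in the centrosome list (0 to 1) and from 6 to 11 among the CDK1 brakes (2 to 6). The 49 pairs of gene and contrast followed were mostly pairs called in either fit, not all pairs of the set. Among them CDC20 between the drugs alone changed sign, from -0.08 to 0.0361 without GDC0068 replicate 1 and 0.0297 without Degrader replicate 2. Its value ran from -0.201 to 0.0361 over the fits that leave out a library, and the cause was not tested. Pairs that were not followed also changed sign. Under GDC0068, 13 genes of the set were above 0 in the fit of all libraries and 23 without DMSO replicate 2. Depth limits the lower genes most (the lowest count was 375), and how far depth and the 2 libraries per arm each limit the calls was not compared.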

Other observations

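Several of the 42 genes share a start region with a gene on the opposite strand: in 15 of them such an interval begins within 1000 bp. In some pairs 1 partner was called and the other was not. BRD8, which encodes a bromodomain protein, rose under Degrader by 0.47, while KIF20A, 540 bp away, had 0.04 (SE 0.0706, adjusted p = 0.764). CDC25C rose by 0.50, while FAM53C, 521 bp away, had -0.01 (edgeR adjusted p = 0.964). NUSAP1 rose by 0.23, while OIP5, 324 bp away, had 0.00 (edgeR adjusted p = 0.964). In other pairs both partners had positive values under Degrader. CKAP2 rose by 0.20, and AL359513.1, 134 bp away, had 0.38 (edgeR adjusted p = 0.152). NDC80 rose by 0.33, and METTL4, 60 bp away, had 0.14 (edgeR adjusted p = 0.246). AC027237.5 rose by 0.30, and KIF23, 609 bp away, had 0.15 (edgeR adjusted p = 0.197). No test compared the partners of a pair with each other, and such pairs over all genes were not counted.

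Among the 32 genes with a promoter window at the start of their interval, 25 held the CHR letters searched and 7 did not. The 25 showed medians on the log2 scale of 0.14 (Degrader) and -0.02 (GDC0068), and the 7 had 0.05 and -0.04. Those 7 were CCNA2, CCNB1, CENPE, KIF20A, KIF2C, PTTG1 and MYBL2, the gene that fell. The groups were not matched for interval length, and its part was not tested. For CCAAT the medians under Degrader were 0.09 with the box (25 genes) and 0.14 without it (7 genes). These are descriptions of small groups, with no test.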
